A study of Mus musculus with 24 samples.

Results

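The genes described here are 31 genes of cholesterol and fatty acid synthesis, taken by symbol from the 55291 genes listed in the deposited tables of mouse embryonic stem cells. They comprise 19 enzymes of the sterol pathway, 6 sterol regulators and 6 genes of fatty acid synthesis. All 31 passed the filter on low values (a mean of at least 10 normalized counts), as did 18713 genes in all. The cells were E14Tg2a embryonic stem cells of the 129/Ola strain, grown without feeders in serum with leukemia inhibitory factor, the GSK3 inhibitor CHIR99021 and the MEK inhibitor PD0325901. In every line used here, controls included, endogenous CTCF is fused to a degron that responds to auxin, so that 500 µM indole-3-acetic acid (IAA, an auxin analog) triggers its loss, and each line also carries a doxycycline-inducible Ctcf transgene. The 24 total RNA libraries formed 12 groups of 2. The line with the wild-type (WT) transgene was left untreated (WT UN), given IAA alone (WT IAA, no transgene induced) or given IAA with 1 µg/ml doxycycline (WT ID). The 9 lines with a substituted transgene (R339Q, R342C, S354F, K365T, R377C, R377H, Q418R, R448Q and H455R) were all given IAA with doxycycline, and treatments lasted 2 days. Each substitution is represented by a separate line, so a line and its substitution cannot be told apart.

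Cholesterol is built from acetyl-CoA through mevalonate, isoprenoid diphosphates, squalene and lanosterol, and a chain of sterol enzymes then trims lanosterol to cholesterol. Transcription of most of these enzymes is driven by the SREBP factors, which are made as membrane precursors, escorted to the Golgi by Scap for cleavage when sterol is scarce, and held back in the endoplasmic reticulum by the Insig proteins when sterol is plentiful. SREBP factors also drive the genes that make and desaturate fatty acids. Dividing cells such as embryonic stem cells need both products for new membrane. CTCF is a zinc finger factor that occupies insulators and halts cohesin as it extrudes loops.

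Libraries held 27.8 to 77.1 M reads in genes, and Fdps was the member with the fewest. Whether the 2 libraries of a group were grown as separate cultures is not in the labels, and the p-values therefore reflect only how far these libraries differ, possibly for technical reasons. CTCF was removed as protein, which RNA does not report. All 11 markers of embryonic stem cells were present in all 24 libraries, with a summed TPM (transcript abundance scaled by gene length and by library total) of 8996 to 11646. Summed TPM of other cell types was far lower, at 2.54 to 22.1 for 6 primitive endoderm markers, 2.5 to 15.1 for 5 trophectoderm markers, 14 to 33.7 for 4 mesendoderm markers, 3.22 to 12.7 for 4 neural markers and 13 to 40.6 for 5 fibroblast markers. These sums differed between groups: the primitive endoderm markers reached 2.54 to 4.16 in untreated cells, 9.04 to 12.1 in WT ID, 18.2 to 18.3 in WT IAA and 20.6 to 22.1 in R339Q, but 8.5 to 8.52 in R448Q, and the embryonic stem cell markers 11334 to 11487 in untreated cells, 9994 to 10309 in WT ID and 9210 to 9404 in WT IAA. Their part in the results on the members was not tested. In bulk RNA, fewer cells expressing a gene and less RNA per cell cannot be told apart. Whole chromosomes stood apart in 5 lines (K365T, R377H, Q418R, R448Q and H455R). There the genes of at least 1 chromosome had a median log2 fold change that differed from the median of all genes by more than 0.15 in either direction. Values after subtracting the median of a gene's own chromosome (centring) are given beside members and counts whose call or direction this changes, though not in every such case.

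In the 10 other treated groups, members were called lower than in WT ID far more often than higher. Each other treated group was set against WT ID with limma (log2 of the normalized count + 1, Benjamini-Hochberg adjusted p under 0.05 over all genes tested). This asks how cells with no induced transgene or a substituted one differ from cells with the wild-type transgene induced. WT IAA was also given no doxycycline, so in that comparison the drug and the transgene cannot be told apart. Over the 10 comparisons there were 310 results for the members, of which 107 were decreases and 17 were increases (34.5% and 5.48%, against 11.4% and 12.1% over all genes tested). The sets differed. Of 190 results for sterol enzymes, 68 were decreases and 8 increases (35.8% and 4.21%). Of 60 for the regulators, 15 were decreases and 7 increases (25.0% and 11.7%), the increases being near the share of all genes. Without WT ID replicate 1 there were 56 decreases and 15 increases (18.1% and 4.84%, all genes 6.67% and 8.19%), and without WT ID replicate 2 there were 80 and 9 (25.8% and 2.90%, all genes 7.18% and 7.90%). The 10 comparisons share the same 2 WT ID libraries, so these counts are not independent of each other. The members were chosen with earlier results of these data known. Their shares beside all genes, here and below, therefore describe these genes and do not test them. WT ID had the highest mean normalized count of the 11 treated groups for 10 of the 31 members and the lowest for 0. R448Q was highest for 6 members and lowest for 7, and K365T was highest for 5 and lowest for 1. Replicate 1 of WT ID exceeded its replicate 2 for 25 members, by a median of 7.93%. The same counts over all genes were not made, so these cannot be set against a background. In the F test over all 11 treated groups 29 of 31 members varied, against 78.1% of all genes tested; Sc5d (adjusted p = 0.359) and Stard4 (adjusted p = 0.0868) did not pass.

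**Figure D1:**
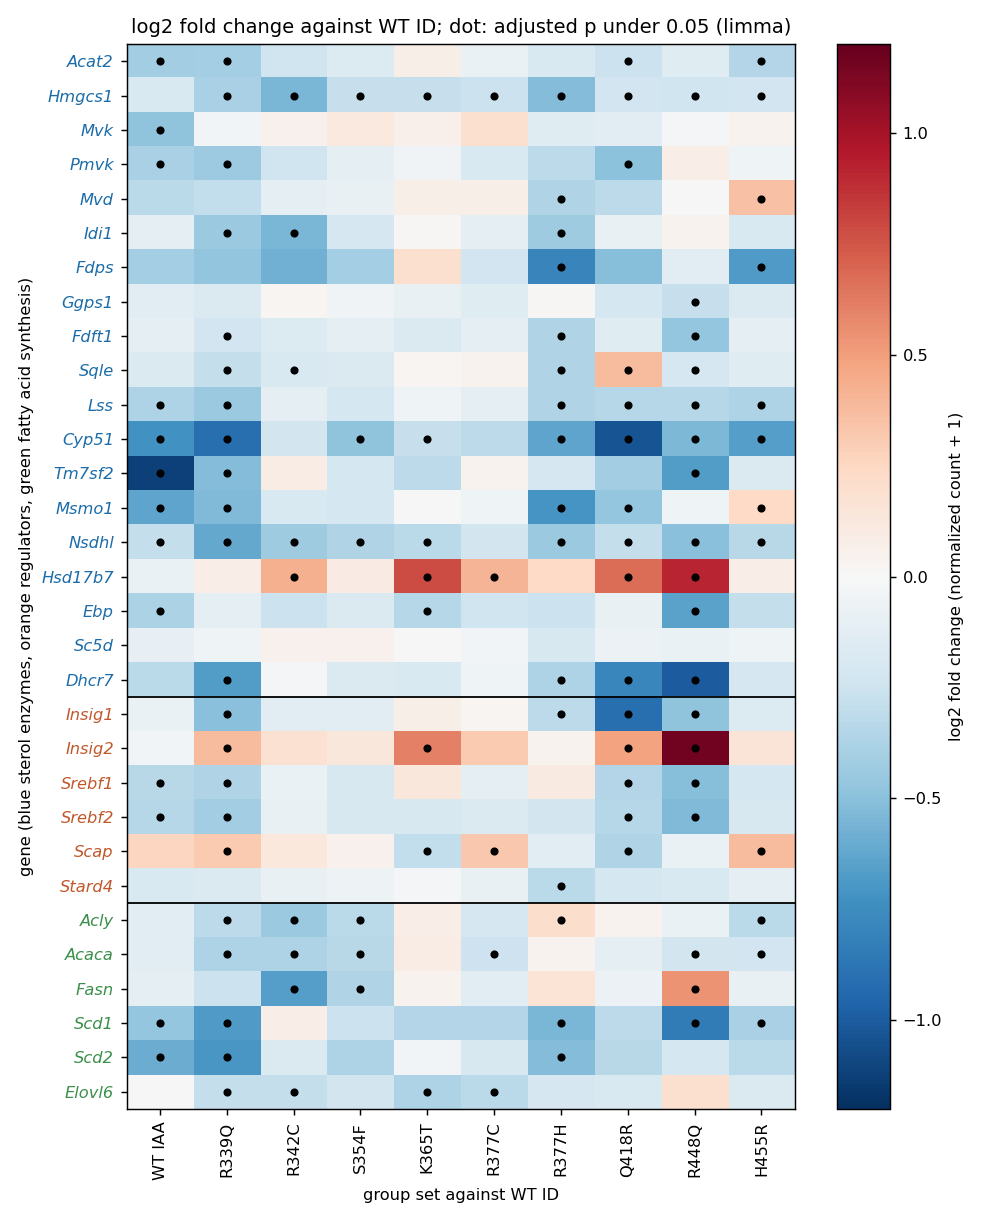
Log2 fold change against WT ID for the 31 members (rows, with sterol enzymes at the top, regulators in the middle and fatty acid synthesis at the bottom) in 10 comparisons (columns), with blue for lower and red for higher. A dot marks an adjusted p under 0.05 by limma; blue cells with a dot fill most of the Hmgcs1, Nsdhl and Cyp51 rows, and the Hsd17b7 and Insig2 rows hold red cells.

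The counts per comparison ranged from 5 to 22 of the 31 members. Shares of all genes are given here and in the next paragraph for the full fit only. The totals with a library left out have no such share beside them. In WT IAA 0 members rose and 13 fell, against 9.96% of all genes tested that rose and 10.7% that fell, and the member median was −0.29 (log2) beside 0.0004 for all genes. Leaving out WT ID replicate 1, or replicate 2 of WT IAA, brought that count to 6. In R339Q, the line with the most calls, 2 rose and 20 fell (all genes 11.8% and 9.70%), with a member median of −0.37 beside −0.0019. In R377H 1 rose and 15 fell (all genes 14.4% and 10.7%), with a median of −0.31; the total was 8 without R377H replicate 2 and 10 without WT ID replicate 1. In R448Q 3 rose and 15 fell (all genes 22.8% and 23.1%), with a median of −0.20. In Q418R 3 rose and 12 fell (all genes 11.2% and 13.8%), with a median of −0.26; the total was 9 without Q418R replicate 1 and 7 without WT ID replicate 1.

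Fewer members were called in the other lines. In H455R 3 rose and 9 fell (all genes 12.6% and 10.5%), with a member median of −0.17, and the total was 5 on leaving out H455R replicate 2 or either of the WT ID libraries. In R342C 1 rose and 8 fell (all genes 10.0% and 13.3%), with a median of −0.16. In K365T 2 rose and 6 fell (all genes 17.7% and 14.2%), with a median of −0.02. The decreases were near the share of all genes and the increases were below it. Fewer members were called there on leaving out K365T replicate 1 or either WT ID library. In S354F 0 rose and 6 fell (all genes 5.49% and 4.31%), with a median of −0.19, and 0 were called without WT ID replicate 1, 2 without S354F replicate 2 and 3 without S354F replicate 1. In R377C 2 rose and 3 fell (all genes 4.67% and 3.43%), with a median of −0.12, and 0 were called without R377C replicate 2 or without WT ID replicate 2, 1 without R377C replicate 1 and 2 without WT ID replicate 1. R377C and R377H, which replace the same residue, had 5 and 16 members called; the difference between these 2 lines was not tested.

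Centring changed the split most where members sit on a shifted chromosome. It gave 0 up and 18 down in R377H (all genes 11.9% and 9.81%), 3 up and 19 down in R448Q (all genes 21.7% and 21.3%) and 2 up and 14 down in Q418R (all genes 9.96% and 12.4%). In H455R it gave 1 up and 6 down (all genes 11.2% and 9.66%). In K365T it gave 2 up and 6 down (all genes 14.9% and 11.6%), the same totals as before but not the same genes. Decreases there comprised 4 sterol enzymes, 1 regulator and 1 fatty acid gene before centring, and 2, 0 and 4 after.

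The first steps, from acetyl-CoA to mevalonate, were led by Hmgcs1, the synthase that makes HMG-CoA (ENSMUSG00000093930.2, mm10 chr13:119690379-119708260, plus strand). Its normalized counts were 10000 and 9378 in the 2 WT ID libraries, 6781 and 6756 in R377H, 6349 and 6917 in R342C and 7912 and 6924 in R339Q. Both WT ID libraries lay above both libraries of all 10 other treated groups. Hmgcs1 fell in all 9 mutant lines, most in R342C (log2 fold change −0.55 ± 0.08, SE, adjusted p = 1.01e-04) and R377H (−0.52 ± 0.08, adjusted p = 5.85e-05), whereas WT IAA, at −0.18 ± 0.08, did not pass (adjusted p = 0.128). The calls in K365T, R377C and H455R were lost on centring, which left 6, and 3 comparisons were called without WT ID replicate 1 and 5 without replicate 2. Acat2, the thiolase that condenses acetyl-CoA, fell in 4 comparisons, with the largest decrease in WT IAA (−0.42 ± 0.09, adjusted p = 0.00285), where its counts were 1918 and 1598 against 2388 and 2293 in WT ID; 2 of the 4 were called without WT ID replicate 1 and 3 without replicate 2.

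The promoter of Hmgcs1 is shown because, among the member promoters that could be matched, it alone held the classical sterol response element searched for. RefSeq promoters (GRCm38.p6, 250 bases before to 50 after a gene start) were matched for 25 of the 31 members, with the start nearest the annotated 5′ end used. Fdft1, Sqle, Fdps, Stard4, Scd1 and Scd2 had no match. For Acaca the start used was 65766 bases from the annotated end, and for the other matched members at most 523 (Tm7sf2). The sterol response element TCACNCCAC, the motif read by SREBP factors, was searched on both strands along with CCAAT, the box read by NF-Y. The bases before the start of Hmgcs1 (chr13:119690101-119690350, plus strand) are printed 5′ to 3′, with capitals for both motifs, CCAAT appearing as ATTGG on the other strand.
Hmgcs1: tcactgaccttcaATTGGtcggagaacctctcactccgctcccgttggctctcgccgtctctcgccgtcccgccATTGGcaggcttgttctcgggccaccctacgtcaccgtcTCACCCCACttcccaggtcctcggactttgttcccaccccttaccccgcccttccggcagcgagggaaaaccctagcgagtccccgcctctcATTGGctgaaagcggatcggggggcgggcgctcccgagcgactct
The first element was in 1 of 25 member promoters (1.24% of 32851 promoters of that length), and CCAAT was in 20 of 25 (37.4% of all), with no overlap between the motifs here. The GC box GGGCGG, read by Sp1, was in 18 of 25 (35.7% of all), the E-box CACGTG in 4 (7.15% of all) and AGGNGGC, part of the CTCF motif, in 9 (29.4% of all). These are matches of letters and say nothing of binding.

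From mevalonate to the isoprenoid diphosphates, each gene was called in 1 to 3 comparisons. The mevalonate kinase gene Mvk fell in WT IAA alone among the 10 comparisons: its counts were 632 and 659 there and 936 and 865 in WT ID (−0.48 ± 0.12, adjusted p = 0.0066), and the call was lost without WT ID replicate 1. Both WT IAA libraries lay below every other treated library. Pmvk, the next kinase, fell in WT IAA (−0.39 ± 0.12), R339Q (−0.44 ± 0.12) and Q418R (−0.49 ± 0.12, adjusted p = 0.00571), with 0 of these called without WT ID replicate 1 and 2 without replicate 2. Mvd, the decarboxylase that yields isopentenyl diphosphate, fell in R377H (−0.36 ± 0.12, adjusted p = 0.0385) and rose in H455R (0.35 ± 0.12, adjusted p = 0.0482), with the H455R value at −0.12 after centring chromosome 8; the decrease was lost without WT ID replicate 1 and the increase without replicate 2. Idi1, the isomerase of that product, fell in R342C (−0.55 ± 0.12, adjusted p = 0.00284), R339Q (−0.45 ± 0.12) and R377H (−0.43 ± 0.12), and 1 of the 3 was called without WT ID replicate 2.

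The prenyl synthases followed. Fdps, which makes farnesyl diphosphate, had counts of 72 and 74 in R377H and 60 and 104 in H455R, against 121 and 133 in WT ID. Fdps overlaps Gm22935 and Gm43738 on its own strand, and how shared reads were counted is not given, so its values are uncertain. It fell in R377H (−0.79 ± 0.24, adjusted p = 0.0209) and H455R (−0.68 ± 0.24, adjusted p = 0.0487), the latter lost on centring; in each other comparison it did not pass, and 0 comparisons were called on leaving out either WT ID replicate. Ggps1, which makes geranylgeranyl diphosphate outside the sterol branch, fell in R448Q (−0.28 ± 0.08, adjusted p = 0.0085), a call lost without WT ID replicate 1. In Q418R Ggps1 was called lower by limma only after centring (−0.25, adjusted p = 0.0334). Its strand partner Arid4b overlaps it, and the strand setting of the counting is not given, so its value is uncertain.

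Of the squalene enzymes, Fdft1, which makes squalene, fell in R448Q (−0.46 ± 0.07, adjusted p = 4.05e-05), R377H (−0.36 ± 0.07) and R339Q (−0.23 ± 0.07); the R339Q call was lost on leaving out either WT ID replicate, and the gene overlaps Ctsb on the opposite strand. Sqle, the epoxidase that is a slow step of the pathway, had counts of 5929 and 5822 in Q418R, 4590 and 4418 in WT ID and 3533 and 3482 in R377H. The 2 Q418R libraries were the highest of the 22 treated libraries and did not overlap WT ID. Sqle rose in Q418R (0.38 ± 0.06, adjusted p = 8.73e-05), while it fell in R377H (−0.36 ± 0.06, adjusted p = 1.37e-04), R339Q (−0.29 ± 0.06), R448Q (−0.20 ± 0.06) and R342C (−0.18 ± 0.06). The R448Q value was −0.06 after centring, with no call, and both of these smaller decreases were lost without WT ID replicate 1. Lss, which closes the ring to lanosterol, fell in 6 comparisons, from R339Q (−0.45 ± 0.08, adjusted p = 2.80e-04) to Q418R and R448Q (each −0.34 ± 0.08), and 5 of those were called without WT ID replicate 1.

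Among the enzymes that act after lanosterol, Cyp51, the lanosterol demethylase (ENSMUSG00000001467.5, chr5:4081145-4104746, minus strand), fell in 8 comparisons. Its counts were 4968 and 4341 in WT ID, 2305 and 2197 in Q418R, 2544 and 2424 in R339Q and 3126 and 2506 in WT IAA. All 20 other treated libraries lay below both WT ID libraries. The log2 fold change was −1.04 ± 0.10 in Q418R (adjusted p = 2.82e-07), −0.90 ± 0.10 in R339Q (adjusted p = 2.21e-06) and −0.73 ± 0.10 in WT IAA (adjusted p = 4.40e-05). R342C (−0.22 ± 0.10) and R377C (−0.31 ± 0.10) did not pass, and centring ended the K365T call; 6 comparisons were called without WT ID replicate 1, K365T and S354F being lost. Cyp51 overlaps Akap9 on the opposite strand.

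Nsdhl, a dehydrogenase that removes a methyl group of the sterol and lies on the X chromosome (chrX:72918557-72958514), fell in 9 comparisons. Its counts were 1486 and 1438 in WT ID, 1066 and 862 in R339Q, 1079 and 988 in R448Q and 1284 and 1114 in WT IAA. WT ID was the highest group, and none of the 20 other treated libraries reached it. The fold change was −0.61 ± 0.10 in R339Q (adjusted p = 2.35e-04), −0.50 ± 0.10 in R448Q (adjusted p = 4.05e-04) and −0.22 ± 0.10 in R377C, which did not pass (adjusted p = 0.206). All 9 calls stood after centring, but 4 were called without WT ID replicate 1 and 4 without replicate 2.

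Hsd17b7, a keto reductase that acts after Nsdhl (chr1:169949535-169969241), changed the other way. Its counts were 462 and 429 in WT ID, 860 and 814 in R448Q, 817 and 721 in K365T, 679 and 737 in Q418R, 612 and 588 in R342C and 562 and 626 in R377C. Each of those 10 libraries lay above both WT ID libraries. Hsd17b7 rose in R448Q (0.91 ± 0.10, adjusted p = 4.35e-07), K365T (0.78 ± 0.10), Q418R (0.67 ± 0.10), R342C (0.43 ± 0.10, adjusted p = 0.00494) and R377C (0.41 ± 0.10, adjusted p = 0.0137). It lies on chromosome 1, which was shifted up in R448Q, K365T and Q418R, and its centred values there were 0.44, 0.53 and 0.42, all called. In WT IAA it was −0.08 ± 0.10, and 3 of the 5 increases were called without WT ID replicate 2.

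**Figure D2:**
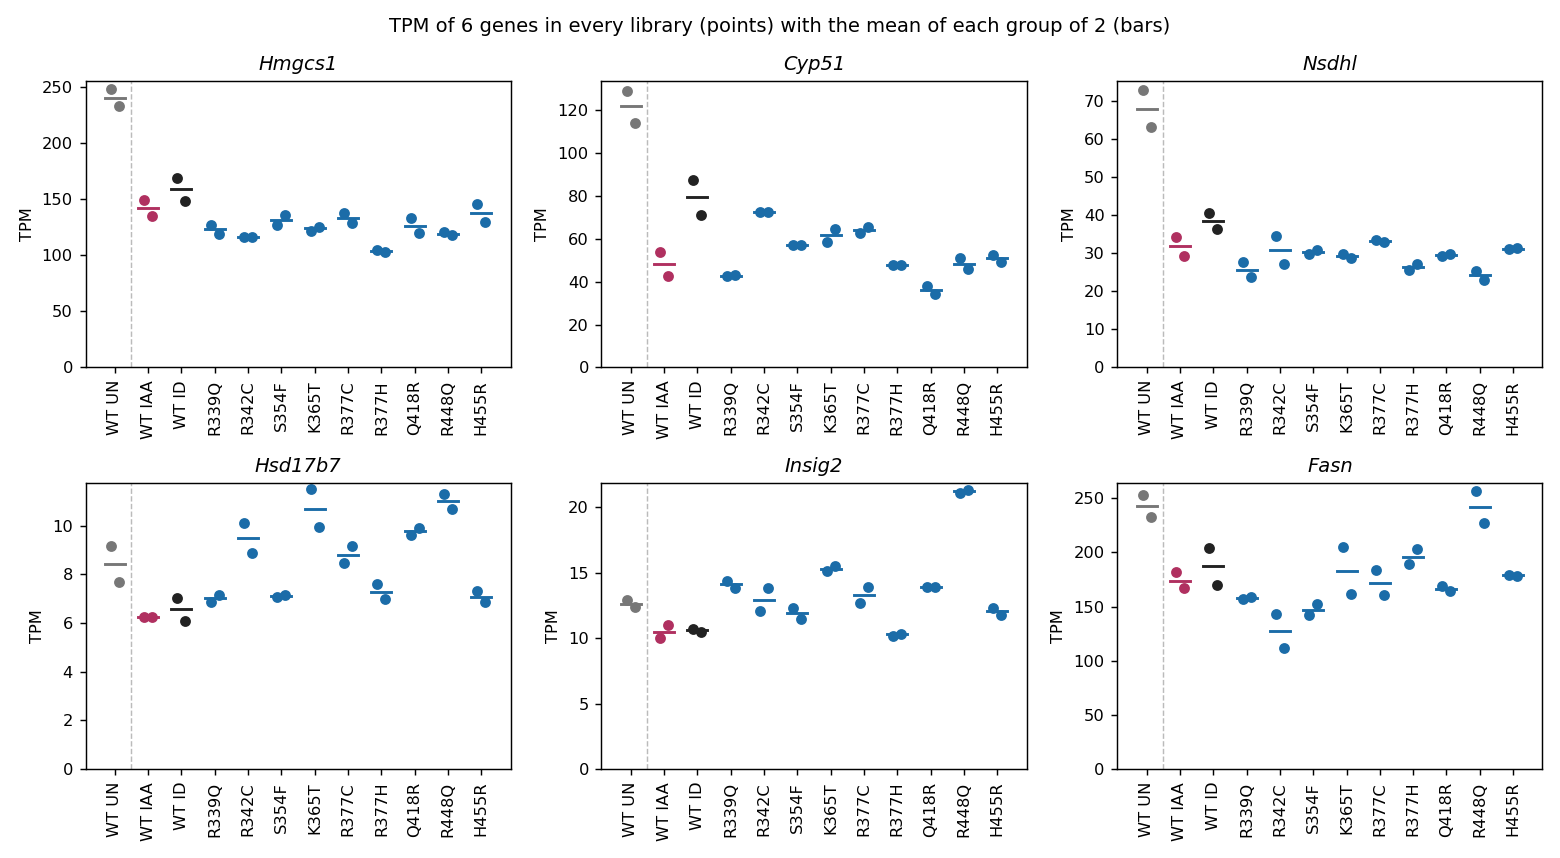
TPM in each of the 24 libraries (points) for 6 members over the 12 groups, with horizontal bars at the mean of each group of 2 and a dashed line between the untreated cells and the treated ones, which come from separate tables. Hmgcs1, Cyp51 and Nsdhl were highest in untreated cells and next highest in WT ID, Hsd17b7 and Insig2 peaked in R448Q, and Fasn was low in R342C.

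The remaining late enzymes varied by line. Tm7sf2, a sterol reductase, had counts of 303 and 287 in WT IAA and 627 and 654 in WT ID, and both WT IAA libraries were below every other treated library. Tm7sf2 overlaps Vps51 on the same strand, so its values are uncertain. It fell in WT IAA (−1.12 ± 0.15, adjusted p = 5.54e-05), R448Q (−0.67 ± 0.15) and R339Q (−0.52 ± 0.15), the last lost on leaving out either WT ID replicate. Msmo1, the methylsterol oxidase, fell in R377H (−0.71 ± 0.08, adjusted p = 1.41e-06), WT IAA (−0.63 ± 0.08), R339Q (−0.53 ± 0.08) and Q418R (−0.46 ± 0.08). It rose in H455R (0.24 ± 0.08, adjusted p = 0.032), where counts were 4774 and 4314 against 4125 and 3575 in WT ID, and the centred value was −0.22 with no call; the increase was also lost without WT ID replicate 2.

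Ebp, the sterol isomerase, fell in R448Q (−0.64 ± 0.11, adjusted p = 9.56e-05), WT IAA (−0.38 ± 0.11) and K365T (−0.34 ± 0.11), and R448Q alone was called on leaving out either WT ID replicate. Dhcr7, a reductase of the last steps, had counts of 3148 and 2640 in WT ID, 1530 and 1357 in R448Q, 1661 and 1695 in Q418R and 1899 and 1736 in R339Q. The libraries of these 3 lines lay below all other treated libraries. Dhcr7 fell in R448Q from a mean of 2894 to 1443 (log2 SE 0.12, adjusted p = 1.38e-06; the log2 fold change was −0.82 after centring, chromosome 7 being shifted down), and by −0.78 ± 0.12 in Q418R and −0.67 ± 0.12 in R339Q. A smaller decrease in R377H (−0.37 ± 0.12, adjusted p = 0.0308) was lost on centring and without WT ID replicate 1. Sc5d, the desaturase before it, was called in 0 of 10 comparisons by limma and ranged from −0.19 to 0.05 (log2).

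Of the regulators, both SREBP genes fell in the same 4 comparisons. Srebf2, which favors sterol genes, had counts of 14243 and 13544 in WT ID, 9562 and 9657 in R448Q, 11036 and 9814 in R339Q, 10622 and 11293 in Q418R and 11177 and 10839 in WT IAA. All 8 of those libraries lay below WT ID. Its fold changes were −0.53 ± 0.08 (adjusted p = 3.62e-05), −0.42 ± 0.08, −0.34 ± 0.08 and −0.34 ± 0.08 in that order. Srebf1, which favors fatty acid genes and overlaps Rai1 on the opposite strand, gave −0.51 ± 0.10 in R448Q, −0.36 ± 0.10 in R339Q, −0.35 ± 0.10 in Q418R and −0.33 ± 0.10 in WT IAA. Without WT ID replicate 1, 2 of the Srebf2 calls and 1 of the Srebf1 calls were made.

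The Insig genes moved apart. Insig1, itself a target of SREBP, had counts of 6510 and 5665 in WT ID, 3239 and 3257 in Q418R, 4427 and 4162 in R339Q, 4466 and 4251 in R448Q and 5223 and 4613 in R377H. The Q418R pair was the lowest of all treated groups, and none of these 8 libraries reached WT ID. Insig1 fell in Q418R (−0.90 ± 0.09, adjusted p = 4.78e-07), R339Q (−0.50 ± 0.09), R448Q (−0.48 ± 0.09) and R377H (−0.31 ± 0.09), the last lost without WT ID replicate 1. In WT IAA it was −0.08 ± 0.09 and did not pass.

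Insig2 had counts of 479 and 505 in WT ID, 1096 and 1105 in R448Q, 732 and 763 in K365T, 665 and 706 in Q418R and 679 and 608 in R339Q. These 8 libraries were all above WT ID, and the R448Q pair was the highest of the 22. Insig2 rose in R448Q (1.16 ± 0.11, adjusted p = 7.21e-08), K365T (0.60 ± 0.11), Q418R (0.48 ± 0.11) and R339Q (0.38 ± 0.11). It also lies on chromosome 1, and the centred values were 0.70 in R448Q, 0.35 in K365T and 0.23 in Q418R, the last without a call. Thus Insig1 fell and Insig2 rose in R339Q, Q418R and R448Q, with the Q418R increase of Insig2 lost on centring and its R339Q increase lost on leaving out either WT ID replicate. Their promoters are shown with CCAAT in capitals, since the pair differs in direction. They are the 201 bases of Insig1 before its first annotated exon (chr5:28071162-28071362, plus strand) and the 250 bases of Insig2 (chr1:121332590-121332839, minus strand), in GRCm38.p6.
Insig1: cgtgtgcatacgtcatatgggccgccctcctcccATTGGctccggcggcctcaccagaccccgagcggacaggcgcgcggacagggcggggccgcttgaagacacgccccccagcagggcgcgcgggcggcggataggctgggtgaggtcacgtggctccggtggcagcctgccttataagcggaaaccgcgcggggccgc
Insig2: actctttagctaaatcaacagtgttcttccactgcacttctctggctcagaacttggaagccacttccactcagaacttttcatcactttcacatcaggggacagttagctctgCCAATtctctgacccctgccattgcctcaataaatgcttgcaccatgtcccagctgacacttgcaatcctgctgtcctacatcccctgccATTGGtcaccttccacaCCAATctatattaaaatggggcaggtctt
The box occurred 1 time in the Insig1 stretch and 3 times in that of Insig2. Insig2 has 3 listed starts and Insig1 has 1, and only the start nearest the annotated 5′ end was searched. Which start these cells use was not tested.

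Scap, the escort of SREBP, went in both directions. Its counts were 1339 and 1202 in WT ID, 1624 and 1684 in H455R, 1602 and 1570 in R377C, 1623 and 1527 in R339Q, 1007 and 1054 in K365T and 865 and 1135 in Q418R. The first 3 lines lay above WT ID and the last pair of lines lay below it, with no overlap. Scap rose in H455R (0.38 ± 0.10, adjusted p = 0.00692), R377C (0.32 ± 0.10) and R339Q (0.31 ± 0.10) and fell in Q418R (−0.36 ± 0.10) and K365T (−0.30 ± 0.10, lost on centring). None of the 3 increases was called without WT ID replicate 2 and neither decrease without replicate 1. Stard4, a carrier of cholesterol between membranes, fell in R377H (−0.32 ± 0.09, adjusted p = 0.0126), a call lost without WT ID replicate 1, and did not pass elsewhere.

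For fatty acid synthesis, 24 of 60 results were decreases and 2 were increases (40.0% and 3.33%, against 11.4% and 12.1% over all genes tested). Without WT ID replicate 1 the decreases numbered 13 (21.7%, all genes 6.67%), and after centring they numbered 32 (53.3%, all genes 10.3%). Acly, which makes cytosolic acetyl-CoA from citrate, had counts of 24577 and 22634 in WT ID, 17300 and 17318 in R342C, 19261 and 18857 in R339Q and 26679 and 28060 in R377H. The R377H pair was the highest of the treated groups and the R342C pair the lowest. It fell in R342C (−0.45 ± 0.07, adjusted p = 3.45e-04), S354F (−0.32 ± 0.07), H455R (−0.32 ± 0.07) and R339Q (−0.31 ± 0.07) and rose in R377H (0.21 ± 0.07, adjusted p = 0.0389). Without WT ID replicate 1 the R342C decrease alone of the 4 was called, and the increase was lost without WT ID replicate 2. Acaca, the carboxylase that makes malonyl-CoA, fell in 6 comparisons, most in R339Q (−0.37 ± 0.07, adjusted p = 0.00113) and R342C (−0.37 ± 0.07, adjusted p = 0.00153); 2 of these were called without WT ID replicate 1.

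Fasn, the synthase that builds palmitate (chr11:120805846-120824547), had counts of 28703 and 25689 in WT ID, 42034 and 37228 in R448Q, 18665 and 15836 in R342C and 21010 and 21400 in S354F. R448Q stood above every other treated library and R342C below every other. Fasn rose in R448Q (0.54 ± 0.10, adjusted p = 1.74e-04, centred 0.40 and still called) and fell in R342C (−0.66 ± 0.10, adjusted p = 1.65e-04) and S354F (−0.36 ± 0.10, adjusted p = 0.0287), the last lost without WT ID replicate 1. The promoter of Fasn (chr11:120824548-120824797, minus strand, GRCm38.p6) is shown with CCAAT in capitals, as the member that differed most between lines in the fatty acid set.
Fasn: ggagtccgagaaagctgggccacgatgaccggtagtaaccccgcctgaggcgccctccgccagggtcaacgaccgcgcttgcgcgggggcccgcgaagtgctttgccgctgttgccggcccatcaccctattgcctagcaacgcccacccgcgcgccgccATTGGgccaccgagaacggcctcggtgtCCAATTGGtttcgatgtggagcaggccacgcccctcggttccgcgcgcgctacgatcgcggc
It held 3 such boxes before the start, of which 2 overlap on opposite strands.

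Acly, Acaca, Fasn and Srebf1 all lie on chromosome 11, whose genes had a median shift of 0.54 in R377H and 0.38 in K365T relative to all genes. In R377H the uncentred values were 0.21, 0.04, 0.16 and 0.11, and the centred ones −0.32, −0.50, −0.37 and −0.42, all called lower. In K365T the 3 fatty acid genes went from 0.08, 0.09 and 0.04 to −0.29, −0.28 and −0.32, all called lower. Relative to their chromosome all of these genes were therefore called low in R377H. In K365T the 3 fatty acid genes were, but Srebf1 was not called lower after centring. Relative to all genes the single call in these lines was the increase of Acly in R377H. In R448Q, chromosomes 1, 3 and 8 were shifted by 0.47, 0.45 and 0.45; there Pmvk went from 0.08 to −0.36, Elovl6 from 0.19 to −0.25, Mvd from 0.00 to −0.44 and Msmo1 from −0.05 to −0.49, each called lower only after centring. What underlies the shifts was not tested.

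**Figure D3:**
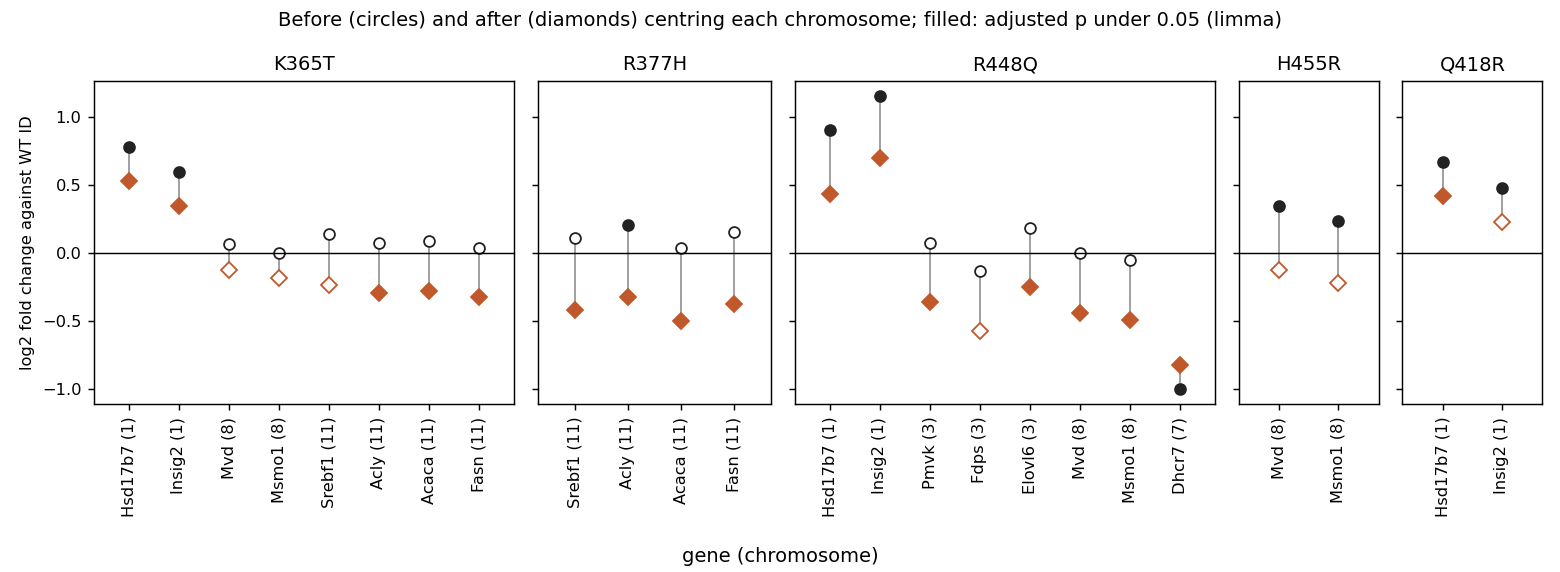
Log2 fold change against WT ID (vertical axis) of members on shifted chromosomes in 5 lines, before centring (circles) and after subtracting the chromosome's median (diamonds), filled where the limma adjusted p is under 0.05. In R377H the 4 chromosome 11 genes go from 0.04 to 0.21 down to −0.50 to −0.32, and in R448Q Insig2 goes from 1.16 to 0.70.

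The desaturase genes Scd1 and Scd2, which put a double bond into fatty acids, differed in extent. Scd2 had counts of 30368 and 26698 in WT ID, 19744 and 17794 in WT IAA, 19370 and 15771 in R339Q and 20404 and 19279 in R377H, with no overlap with WT ID. It fell in those 3 groups (−0.60 ± 0.13, −0.70 ± 0.13 and −0.52 ± 0.13, adjusted p = 0.00264, 6.05e-04 and 0.00519), with R377H lost without WT ID replicate 1. Scd1 fell in 5 comparisons, most in R448Q (−0.84 ± 0.14, adjusted p = 4.46e-05), where Scd2 was −0.21 ± 0.13 and did not pass. Of the 5 Scd1 calls, 2 were made without WT ID replicate 1, 3 without replicate 2 and 4 after centring. Elovl6, the elongase of palmitate, fell in K365T (−0.37 ± 0.08), R377C (−0.32 ± 0.08), R342C (−0.29 ± 0.08) and R339Q (−0.29 ± 0.08); without WT ID replicate 2 none of these was called. In WT IAA the 3 genes of the backbone pathway did not pass (Acly −0.13 ± 0.07, Acaca −0.13 ± 0.07, Fasn −0.11 ± 0.10).

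Untreated cells show the levels from which the treated cells of the wild-type line departed. They come from tables of their own, so they were compared by TPM with no test, and treatment and any difference between the tables cannot be told apart. By TPM, 10 of 31 members were at least 1.5-fold lower in WT ID than in untreated cells with no overlap of the libraries, and 0 were higher (all genes with a mean TPM of at least 1: 5.42% lower and 19.7% higher). These were 9 sterol enzymes and Scd2. In WT IAA 16 were lower and 0 higher (all genes 7.63% and 21.2%), comprising 14 sterol enzymes, Stard4 and Scd2. The member median log2 ratio was −0.38 for WT ID and −0.66 for WT IAA, beside 0.17 for all genes in both. With a 2-fold limit the counts were 1 and 9.

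Single genes show the order of the 3 wild-type groups. Cyp51 had 129 and 114 TPM untreated, 87.6 and 71.2 in WT ID and 54.1 and 42.8 in WT IAA. Lss had 36.0 and 31.6 TPM untreated, 18.3 and 15.4 in WT ID and 14.0 and 12.4 in WT IAA. Nsdhl had 72.8 and 63.1 TPM untreated, 40.6 and 36.5 in WT ID and 34.4 and 29.4 in WT IAA. In these 3 genes the groups did not overlap and WT ID lay between the other groups. Idi1 gave 30.5 and 31.4 TPM untreated, 16.4 and 16.3 in WT ID and 17.2 and 13.5 in WT IAA, so its treated groups overlapped each other. Tm7sf2 differed in that WT ID (11.1 and 10.8 TPM) overlapped untreated cells (11.6 and 8.45) and WT IAA (5.25 and 4.91) was below both.

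Both untreated libraries lay above all 22 treated libraries for 17 of 31 members (13 sterol enzymes, Insig1, Stard4, Acaca and Scd2), against 5.61% of all genes, and below all of them for 0, against 13.3%. For Nsdhl the lowest untreated value was 63.1 TPM and the highest treated value 40.6. For Idi1 these values were 30.5 and 17.2, for Hmgcs1 233 and 169 and for Mvk 32.2 and 32. The member with the lowest measured level, Fdps, had 5.72 and 5.01 TPM untreated and 1.06 to 2.83 in treated libraries. That level is uncertain because Fdps overlaps other genes on its own strand. Fasn, Scd1, Elovl6, Insig2 and Hsd17b7 were among the 14 whose untreated values fell within the treated range.

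**Figure D4:**
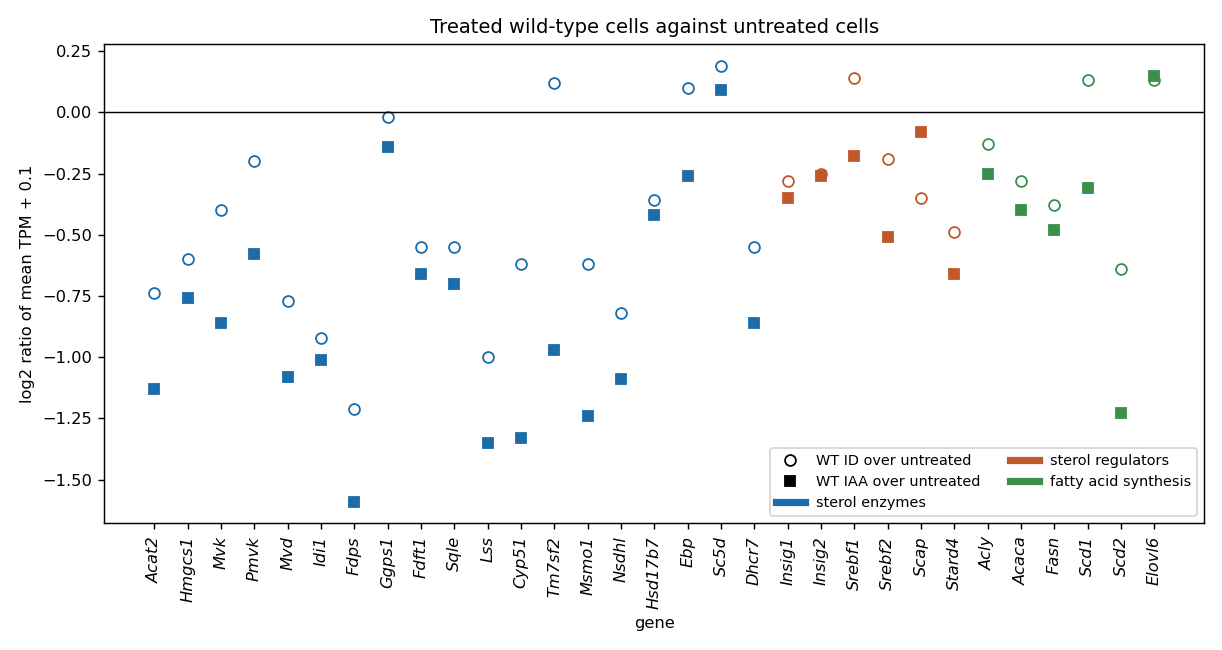
Log2 ratio of mean TPM (+ 0.1) of WT ID (open circles) and WT IAA (filled squares) over untreated cells for the 31 members, colored by set, each from 2 libraries a group. Most sterol enzymes lie below 0 with WT IAA lower than WT ID, as for Cyp51 (−0.62 and −1.33) and Fdps (−1.21 and −1.59), whereas Elovl6 lies above 0 for both (0.13 and 0.15).

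Levels per length differed widely between members. Over the 22 treated libraries median TPM was 316 for Scd2, 292 for Acly, 191 for Scd1 and 170 for Fasn, and among sterol enzymes it was 127 for Hmgcs1, 75.4 for Fdft1 and 57.6 for Acat2. Hsd17b7 (7.46), Tm7sf2 (8.69) and Fdps (1.81) were at the bottom. Insig1, at 133 TPM, was above Insig2, at 12.5, and even in R448Q, where Insig1 was at 96.6 and 91.9 TPM and Insig2 at 21.1 and 21.3, that order held. Srebf2 (122 TPM) was above Srebf1 (54.6).

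Genes around the pathway, on lists of 59 genes that were chosen for function, were called in both directions. In WT IAA 4 of 59 rose and 17 fell (all genes 9.96% and 10.7%), in R339Q 7 rose and 15 fell (11.8% and 9.70%), and in R448Q 19 rose and 22 fell (22.8% and 23.1%). In K365T 13 rose and 19 fell (17.7% and 14.2%), or 8 and 17 after centring (14.9% and 11.6%). In R377H 9 rose and 18 fell (14.4% and 10.7%), in Q418R 6 and 13 (11.2% and 13.8%) and in H455R 9 and 13 (12.6% and 10.5%, with 6 and 12 after centring). R342C had 6 and 6 (10.0% and 13.3%), S354F 2 and 5 (5.49% and 4.31%) and R377C 3 and 3 (4.67% and 3.43%). Of 20 genes of fatty acid supply, elongation and desaturation, 9 fell in R339Q and 9 in R448Q. Of 17 genes of sterol transport and storage 10 fell and 5 rose in R448Q, and of 10 genes of SREBP processing 6 rose and 0 fell there (4 and 1 after centring). Of 12 genes of isoprenoid branches 1 rose and 5 fell in K365T and 0 rose and 5 fell in R377H, but 5 rose and 3 fell in R448Q.

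Single genes named by rule were led by Mid1ip1, which promotes polymerization of acetyl-CoA carboxylase. Its counts were 786 and 571 in WT ID, 223 and 189 in R339Q, 252 and 186 in R448Q and 335 and 203 in H455R. It was among the 3 largest changes in 7 comparisons and fell in each, by −1.70 ± 0.23 in R339Q (adjusted p = 3.37e-05), −1.63 ± 0.23 in R448Q and −1.36 ± 0.23 in H455R; in Q418R it did not pass (−0.03 ± 0.23). The R377C call was lost on centring (adjusted p = 0.0518), and with single libraries left out the adjusted p reached 0.371 in R377C, 0.114 in WT IAA and 0.109 in S354F. Soat1, which esterifies cholesterol for storage, had counts of 849 and 856 in WT ID, 2132 and 2234 in K365T and 1734 and 1685 in R342C, and rose in both (1.36 ± 0.09 and 1.00 ± 0.09, adjusted p = 4.52e-09 and 5.80e-07). Soat1 rose in all 9 mutant lines, R448Q (1.23 ± 0.09) among them, and fell in WT IAA (−0.37 ± 0.09, adjusted p = 0.00606). It lies on chromosome 1, and its centred values were 1.10 in K365T, 0.77 in R448Q and 0.01 in Q418R, the last without a call.

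Lipa, the lysosomal lipase that frees cholesterol from its esters, had counts of 121 and 124 in WT ID and 401 and 343 in R448Q, and a mean of 401 in K365T. It rose in K365T (1.69 ± 0.17, adjusted p = 4.87e-07), in R448Q (1.59 ± 0.17, adjusted p = 2.47e-07) and in R377C, R377H, R342C and R339Q (0.94, 0.94, 0.89 and 0.73). Lpin1, a phosphatidate phosphatase of lipid synthesis, fell in R448Q (−1.44 ± 0.10, adjusted p = 9.13e-10), from 4469 and 3574 to 1507 and 1438, and less in K365T (−0.65 ± 0.10) and R377H (−0.64 ± 0.10), while it rose in R342C (0.33 ± 0.10). Slc25a1, the carrier that exports citrate from mitochondria, fell in 9 comparisons, most in H455R (−0.80 ± 0.08), R448Q (−0.77 ± 0.08) and R339Q (−0.76 ± 0.08), and did not pass in Q418R. Acss2, which makes acetyl-CoA from acetate, and the acyl-CoA synthetase gene Acsl3 fell most in R339Q (−1.03 ± 0.11 and −0.92 ± 0.14). Abcg1, a sterol exporter, fell in R448Q (−1.30 ± 0.15), Q418R (−1.07 ± 0.15), K365T (−0.92 ± 0.15) and R377H (−0.42 ± 0.15). The desaturase gene Fads2 fell in WT IAA (−0.93 ± 0.16), R339Q (−0.74 ± 0.16) and Q418R (−0.74 ± 0.16) and rose in K365T (0.47 ± 0.16). Rabggta, which prenylates Rab proteins, fell in 5 comparisons, most in WT IAA (−0.96 ± 0.11), and Fabp5, a fatty acid binding protein, fell in H455R (−1.07 ± 0.24) and Q418R (−0.70 ± 0.24). With single libraries left out, the adjusted p reached 0.0995 for Fabp5 and 0.0549 for Fads2 in Q418R.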

How the data were processed

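Total RNA was measured in 24 libraries (Illumina stranded total RNA, ribosomal RNA depletion, 150 bp read pairs, per the labels' protocols). Trim Galore, STAR, DESeq2 and the mm10 build are named in the submitters' processing notes; tool versions, the annotation, the counting program and its strand and multi-mapping settings were not given in the sources used here, so genes that overlap or share reads with copies are uncertain. The authors deposited normalized counts (a signal: reads divided by a size factor per library, whole reads being recovered within 0.001) and TPM, with the untreated libraries in tables scaled separately. Of the listed genes, 53186 symbols were found once in GENCODE M21. Columns from samples outside the series numbered 0.

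Treated groups were fitted with limma 3.58.1 in R 4.3.3 on log2(normalized count + 1) of the 22 treated libraries, with 1 coefficient per group, a mean of at least 10, a mean-variance trend (11 residual and 8.13 prior degrees of freedom) and Benjamini-Hochberg adjustment per comparison over 18713 genes at 0.05. The fold change of low genes is understated on this scale. Untreated cells were compared by TPM without a test (1.5-fold, no overlap, mean TPM of at least 1, pseudocount 0.1). Alternatives were edgeR 4.0.16 and DESeq2 1.42.0 on recovered reads, log2(TPM + 0.1), a pseudocount of 10, no filter, a replicate block, centring on chromosome medians (chromosomes with at least 50 genes) and each library left out. The code was tested on simulated data. Every member is named; from the other lists, up to 3 called genes per comparison with the largest change, a mean of at least 50 and no overlap between groups are named, except that 1 result of this rule is not reported here. Members and lists were chosen with earlier results of these data known.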

Additional observations from a re-analysis of the deposited data

Results flagged for a closer look

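In 6 members both libraries of one line lay above WT ID with a called increase. In the same members both libraries of another line lay below it with a called decrease. The difference between the lines was not tested. The share of all genes with such a pattern is not given here, so the 6 cannot be set against a background. Mvd gave 0.35 (log2 fold change) in H455R and −0.36 in R377H, and the H455R value was −0.12 after centring. Sqle gave 0.38 in Q418R and −0.36 in R377H. Msmo1 gave 0.24 in H455R and −0.71 in R377H, and the H455R value was −0.22 after centring. Scap gave 0.38 in H455R and −0.36 in Q418R. Acly gave 0.21 in R377H and −0.45 in R342C, and the R377H value was −0.32 after centring. Fasn gave 0.54 in R448Q, 0.40 after centring, and −0.66 in R342C.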

How the results depend on the processing

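Of the 310 member results, 107 were called decreases, 17 were called increases and the rest were not called. The outcome, called or not, was the same in 306 with edgeR, 301 with DESeq2, 268 with TPM, 309 with a pseudocount of 10, 282 without a filter and 283 with centring. These figures include results that were never called. Calls lost with direction kept numbered 4 with edgeR, 1 with DESeq2, 20 with TPM, 0 with a pseudocount of 10, 28 without a filter and 10 with centring. Leaving out single libraries also cost calls, as given below by comparison. Among results called before or after, direction reversed under centring and under no other of these alternatives: Pmvk (−0.36) and Elovl6 (−0.25) in R448Q; Mvd (−0.12) and Msmo1 (−0.22) in H455R; Acly (−0.29), Acaca (−0.28) and Fasn (−0.32) in K365T; and Srebf1 (−0.42), Acly (−0.32), Acaca (−0.50) and Fasn (−0.37) in R377H. Members called in S354F were 3 with TPM and 3 without a filter, in R377C 3 and 1, and in H455R 6 and 6, with 7 under centring; the cause was not tested, beyond the larger number of genes adjusted over without a filter. With a 2-fold limit, 1 member was lower in WT ID and 9 in WT IAA than in untreated cells. With single libraries left out, the calls ranged from 6 to 9 in WT IAA, 16 to 16 in R339Q, 6 to 8 in R342C, 0 to 4 in S354F, 3 to 8 in K365T, 0 to 2 in R377C, 5 to 10 in H455R, 14 to 19 in R448Q, 8 to 13 in R377H and 7 to 14 in Q418R. Over all genes tested, deviations of same-numbered replicates had a median correlation of 0.023 (−0.248 to 0.382 over 55 pairs of groups, 10 over 0.1). A replicate effect shared by the members was not tested. With the replicate block the calls were 15 in WT IAA, 23 in R339Q, 9 in R342C, 7 in S354F and 9 in K365T. They were 5 in R377C, 12 in H455R, 18 in R448Q and 16 in both R377H and Q418R. Shares of all genes by comparison are not given beside the counts in this section. Pooled over comparisons, fewer of all genes were also called without either WT ID replicate, as given above. Changes in these counts therefore cannot be read as particular to the members. The precision of every comparison is limited by 2 libraries a group and by the shared WT ID pair.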
